A study of Homo sapiens with 20 samples.

Results

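The NRF2 system was examined as 10 genes in m6A peak lists of bladder cancer cells. Its members were the sensor KEAP1, the repressor BACH1, the activator NFE2L2 (which encodes NRF2), the small MAF genes MAFF, MAFG and MAFK, and the target genes NQO1, HMOX1, TXNRD1 and SRXN1. They were taken by name, and a peak was counted for a member when its summit lay in an annotated exon of the gene. By this rule 196 of 173873 exonic peaks, from 231465 peaks in all lists, belonged to the 10 genes. These peaks fell into 32 of the 43676 regions that the authors obtained by merging the lists. MeRIP-seq (pull-down of fragmented RNA with an antibody against N6-methyladenosine, m6A) had been run on T24, a cisplatin-sensitive human bladder cancer line, and on T24R2, a cisplatin-resistant line made from T24 by stepwise exposure to the drug and kept under cisplatin according to the study's methods. Both lines were labelled wild type and day 3 of culture, and each had 5 replicates with an immunoprecipitated (IP) and an input library, 20 samples in all. The peak lists of the 10 IP libraries, in which the input is the background, were analysed. The labels do not say whether replicates were separate cultures, so p-values measure the spread between these libraries. T24R2 is a single derived line, and its resistance cannot be told apart from other differences between the lines.

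NRF2 is a transcription factor that switches on antioxidant and detoxification genes. In unstressed cells KEAP1 holds it in the cytoplasm and presents it to a CUL3 ubiquitin ligase for destruction, and electrophiles or oxidants that modify KEAP1 release it. In the nucleus NRF2 pairs with a small MAF protein on antioxidant response elements, sites that BACH1 occupies with the same partners to keep genes such as HMOX1 silent. The question was where m6A peaks lay on the transcripts of this system, in which libraries of each line, and how strongly they were enriched.

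The lists held between 17203 and 33120 peaks and were longer in T24R2 than in T24, with 25837 ± 4203 against 20456 ± 2082 peaks (SD, n = 5 each, two-sided exact permutation p = 0.0159). The number of reads behind a peak is unknown, because the lists hold no counts. A missing peak can mean less m6A, less transcript or fewer reads, and these cannot be told apart here. Peak strength is given as the authors' fold enrichment of IP over input and as its percentile, the rank of that value within the peaks of the same library (100 is the strongest). Cell type was checked by lists of marker genes. KRT7, an epithelial keratin, had an exonic peak in all 10 libraries, while 4 of 6 epithelial (KRT8, KRT19, CDH1 and EPCAM), 4 of 6 urothelial (UPK1B, UPK2, UPK3A and KRT20), 1 of 3 mesenchymal (FN1), 2 of 3 leukocyte (PTPRC and CD3E) and 1 of 2 endothelial markers (VWF) had none. GATA3, a urothelial transcription factor, had a peak in 5 T24 and 0 T24R2 libraries, and CD68, listed as a leukocyte marker, in 5 and 1. Unadjusted p was 0.00794 for GATA3 and 0.0476 for CD68 (both by Fisher's exact test). Neither passed 0.05 after Benjamini-Hochberg adjustment over all genes (adjusted p = 0.190 and 0.533). Both are single genes from the marker lists, and the share of all genes called in more T24 libraries is not given here. The strongest peak of VIM, a mesenchymal filament protein, had a mean percentile of 46.3 (8.82 to 75.8) in 5 T24 libraries and of 0.501 (0.104 to 1.20) in 4 T24R2 libraries, ranges that did not overlap. This was not tested, since a T24R2 library had no VIM peak. The share of all genes with every T24 value above every T24R2 value is not given here. CDH2, also listed as mesenchymal, had peaks in all 10 libraries and went the other way. Its mean percentile was 23.3 in T24 and 34.4 in T24R2, with overlapping ranges (exact permutation p = 0.421). KRT18 (epithelial) had a peak in 0 T24 and 2 T24R2 libraries, and UPK1A (urothelial) in 1 and 1. The endothelial marker PECAM1 had peaks in all 10 libraries. A marker without a peak may still be expressed, and the part of these differences in the results on the NRF2 genes was not tested.

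Sequences at or near the median summits of the regions on which the results turn are given 5′ to 3′ on the strand of the gene, from the hg38 genome. Coding (CDS) windows hold 101 nt centred on the median summit of the region, and 3′UTR windows hold 29 nt centred on the nearest match to DRACH, the m6A consensus. The motif is an A and a C (AC) behind A, G or T and then A or G, and in front of A, C or T. Capitals mark each match to DRACH, and NFE2L2 region 15 is shown although its window has none. A window need not hold the called summits. The MAFG window (positions 501 to 601 of the transcript) holds none of its summits, which lay at 343, 431, 672 and 684. The TXNRD1 window starts at position 2159, the summit of T24 replicate 5, and lies beyond the summits of the other libraries.
KEAP1 region 1, exon 2, CDS (chr19:10499503-10499603, minus strand): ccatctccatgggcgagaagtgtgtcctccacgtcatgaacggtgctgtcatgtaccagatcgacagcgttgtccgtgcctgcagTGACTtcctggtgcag
KEAP1 region 2, exon 3, CDS (chr19:10491677-10491777, minus strand): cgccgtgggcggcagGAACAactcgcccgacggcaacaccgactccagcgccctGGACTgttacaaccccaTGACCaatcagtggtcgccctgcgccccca
KEAP1 region 3, exon 4, CDS (chr19:10489698-10489798, minus strand): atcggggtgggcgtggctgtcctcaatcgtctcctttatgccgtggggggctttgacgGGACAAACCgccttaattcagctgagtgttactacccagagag
KEAP1 region 5, 3′UTR (chr19:10486494-10486522, minus strand): tcagtgttaaaaTGACAtctcaaaagaag
BACH1 region 8, exon 3, CDS (chr21:29326896-29326996, plus strand): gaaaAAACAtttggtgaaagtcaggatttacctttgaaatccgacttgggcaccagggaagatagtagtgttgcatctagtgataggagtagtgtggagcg
BACH1 region 10, exon 5, CDS (chr21:29342472-29342572, plus strand): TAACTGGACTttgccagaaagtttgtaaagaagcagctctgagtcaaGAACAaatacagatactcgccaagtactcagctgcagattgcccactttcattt
NFE2L2 region 15, exon 5, CDS (chr2:177231055-177231155, minus strand): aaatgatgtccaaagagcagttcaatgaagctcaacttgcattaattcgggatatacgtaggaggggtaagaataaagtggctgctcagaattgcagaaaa
MAFF region 20, 3′UTR (chr22:38215551-38215579, plus strand): ccctggcttgggAGACCgctctctgcaag
MAFG region 21, exon 3, CDS (chr17:81922730-81922830, minus strand): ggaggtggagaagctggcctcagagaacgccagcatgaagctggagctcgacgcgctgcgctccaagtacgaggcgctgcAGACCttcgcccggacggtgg
MAFK region 24, 3′UTR (chr7:1540650-1540678, plus strand): ccgtgggagtcgGGACAtataatggaaag
TXNRD1 region 30, 3′UTR (chr12:104348606-104348634, plus strand): cactggggtcacTGACAGACTtgaagctg
SRXN1 region 32, 3′UTR (chr20:648498-648526, minus strand): ttcccacctctgTGACAataggatcatgg
These windows differ in how near the motif lies. In BACH1 region 10 the A of a DRACH match (GAACA) was 1 nt from the median summit and in KEAP1 region 2 (GGACT) 6 nt from it, whereas the nearest match was 37 nt away in KEAP1 region 1 and 40 nt away in TXNRD1 region 30. Within 50 nt of the summit on the sense strand, 181 of 196 member peaks (92.3%) held a match, against 76.5% when the opposite strand was searched. Over 165758 exonic peaks of genes on 1 strand these shares were 90.5% and 71.6%. The order of members and all peaks on the sense strand turned with a window of 25 nt (66.8% against 71.7%) and with the motif GGAC (43.9% against 47.9%). Of the member peaks, 78 of 80 in T24 (97.5%) and 103 of 116 in T24R2 (88.8%) held a match; many of these are the same site in several libraries, so no test was made. A window of this length often holds the motif, and a match is not a mapped site.

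Peaks were found on 9 of the 10 genes, and NQO1, a quinone reductase often used as a readout of NRF2, had none in any library. For 7 of the 10 genes at least 1 exonic peak was called in all 10 libraries, as for 6360 of 13976 genes with an exonic peak (45.5%). The exceptions beside NQO1 were MAFG, with peaks in 0 T24 and 4 T24R2 libraries, and HMOX1, with peaks in 1 and 3. The number of member peaks was 15, 16, 18, 15 and 16 in the T24 libraries and 22, 21, 25, 21 and 27 in the T24R2 libraries, so the lines did not overlap. The means were 16.0 ± 1.22 and 23.2 ± 2.68 (SD, n = 5 each). As a share of all exonic peaks of the list, member peaks made up 0.101 ± 0.00986% (T24) and 0.124 ± 0.0111% (T24R2), with overlapping ranges. With each list shortened to its 17203 strongest peaks the numbers were 14.0 ± 2.00 and 17.2 ± 1.64, a difference of 3.20 in place of 7.20.

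The plot of peak numbers by gene shows where the additional T24R2 peaks were. KEAP1 and NFE2L2 were the 2 members for which every T24R2 library had more exonic peaks than every T24 library, a pattern found in 4.04% of the 13976 genes. TXNRD1 had exactly 1 peak in each of the 10 libraries, and the numbers for BACH1, MAFF, MAFK, HMOX1 and SRXN1 overlapped between lines.

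**Figure D1:**
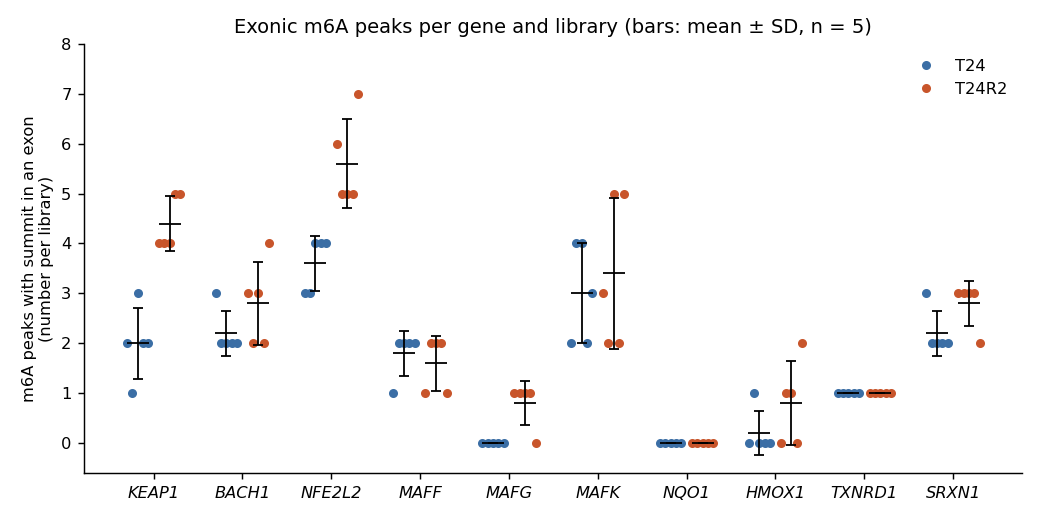
Number of m6A peaks with a summit in an exon (vertical axis) for each gene (horizontal axis), 1 point per library, with T24 in blue, T24R2 in orange and black bars for mean ± SD (n = 5). KEAP1 lies at 1 to 3 peaks in T24 and 4 to 5 in T24R2, NFE2L2 at 3 to 4 and 5 to 7, and NQO1 at 0 in all libraries.

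Of the 196 member peaks, 82 had their summit in the CDS of the MANE Select transcript (the reference transcript of the gene), 77 in its 3′UTR, 7 in its 5′UTR and 30 in exons of other transcripts. The last exon held 65.1% of the 166 member summits in MANE Select exons and 55.5% of 141048 such summits of all genes. In T24, 30 of 80 summits lay in the CDS and 38 in the 3′UTR, and in T24R2 52 of 116 and 39. The 3′UTR thus held nearly the same number of summits in both lines, and most of the additional T24R2 summits lay in the CDS. Much of this came from single genes: KEAP1 had 10 summits in T24 and 22 in T24R2, and MAFG 0 and 4. Shares by line for the summits of all genes are not given here, so it cannot be said whether this is particular to the members. Of the 32 regions, 19 were called in more T24R2 than T24 libraries, 2 in more T24 libraries and 11 in equal numbers, against 52.6%, 19.6% and 27.9% of all regions. A total of 11 member regions were called in all 10 libraries, where 21.9% of all regions were, and 8 in a single library, where 27.9% were. Here and below, all regions include those without an exonic summit, which every member region has by the rule, so these shares compare unlike sets.

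**Figure D2:**
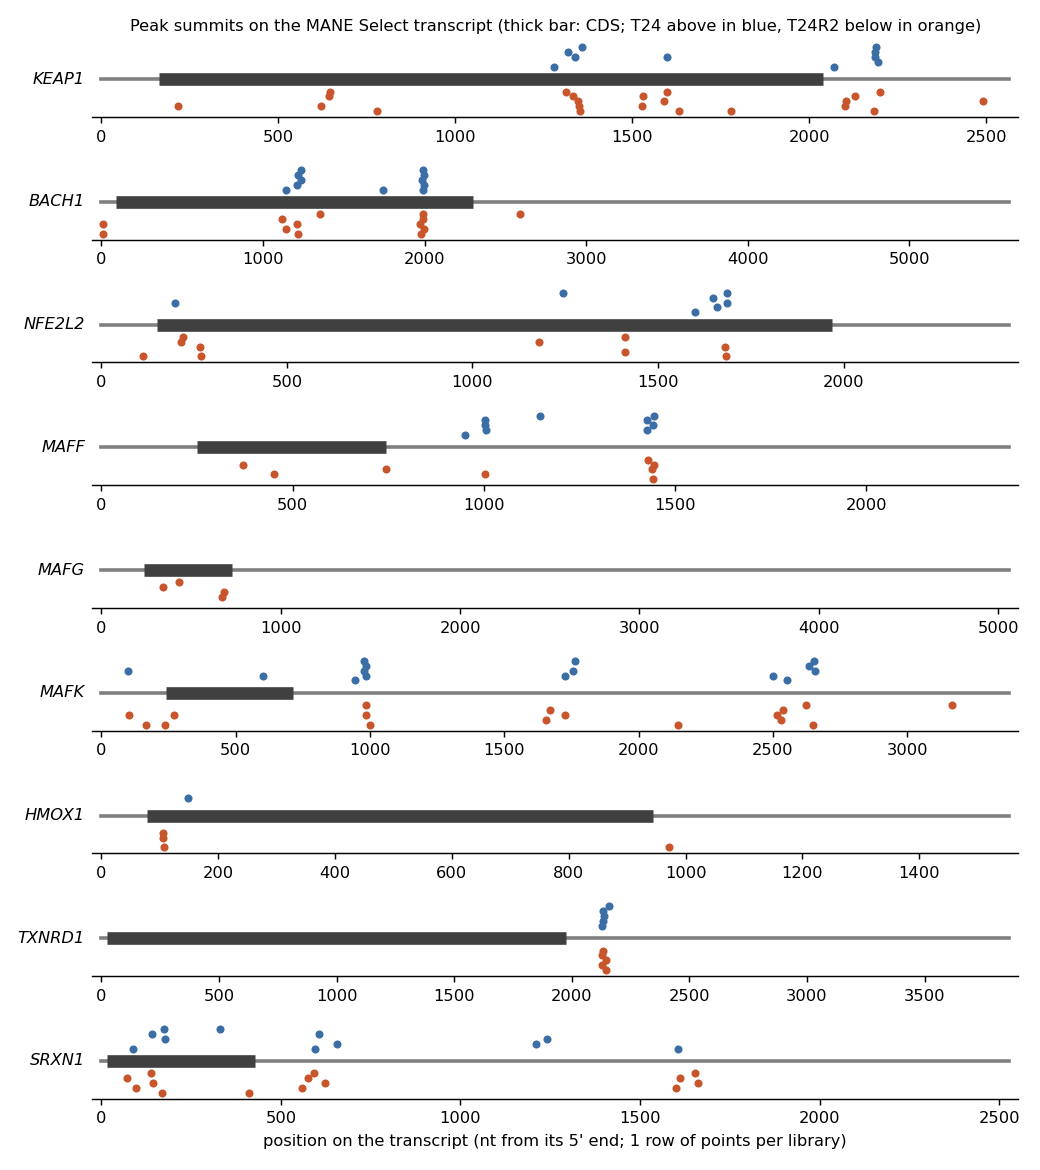
Summits of member peaks along the MANE Select transcript, in nt from its 5′ end on a separate scale for each gene, with the CDS as a thick bar, T24 libraries above in blue and T24R2 libraries below in orange, 1 row per library. TXNRD1 summits lie within 31 nt of each other in all 10 libraries, while KEAP1 has summits in exon 2 in T24R2 only.

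Presence in the 5 libraries of each line was compared by region with Fisher's exact test (two-sided). Unadjusted p was under 0.05 for 4 of the 32 member regions, each called in more T24R2 libraries, and for 7.11% of all regions in that direction. No member region was called in more T24 libraries at that level, where 2.09% of all regions were. After Benjamini-Hochberg adjustment over 43676 regions no region of any gene passed 0.05 (lowest adjusted p = 0.195, Fisher's exact test), and the 4 member regions had an adjusted p of 0.517. They were 2 regions of KEAP1, 1 of NFE2L2 and 1 of MAFG. With 5 against 5 libraries the smallest p of Fisher's exact test, and of the permutation tests below, is 0.00794. A region or gene can thus pass adjustment only if a large share of all of them reaches that p. Not passing therefore does not show that the lines are equal.

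KEAP1 is the substrate adaptor that binds NRF2, and its gene lies on the minus strand of chromosome 19 (10486125 to 10503558, hg38). It had 2, 1, 3, 2 and 2 exonic peaks in T24 replicates 1 to 5 and 4, 4, 4, 5 and 5 in T24R2. All of them lay on the MANE Select transcript, in 4 CDS regions and 1 region of the 3′UTR. Region 1 in exon 2 was called in 4 T24R2 libraries and no T24 library (p = 0.0476 by Fisher's exact test, 0.517 after adjustment). Its fold enrichment was 3.88, 5.22, 4.09 and 3.98 in T24R2 replicates 1, 2, 4 and 5, between the 10.5th and 19.1st percentile of those lists, so these were weak peaks. Its summits were spread from position 218 to 778 of the transcript and thus do not mark a single site. Region 3 in exon 4 was called in 1 T24 and 5 T24R2 libraries, with the same p-values. It had a fold enrichment of 4.99 in T24 replicate 3 and of 2.96 to 5.28 in T24R2, and its summits fell within 106 nt. Both differences were smaller in lists of equal length, at 0 against 2 libraries for region 1 and 0 against 3 for region 3 (Fisher's exact p = 0.444 and 0.167).

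Regions 2 and 5 were the strongest of KEAP1 and were called in both lines. Region 2 in exon 3, whose window holds 3 DRACH matches, was called in 4 T24 and 5 T24R2 libraries at a mean percentile of 41.1 ± 32.5 (SD, n = 4) and 37.0 ± 8.91 (SD, n = 5). Region 5 in the 3′UTR, a median of 149 nt after the stop codon, was called in all 10 libraries. Its percentiles were 21.0, 31.9, 58.5, 82.5 and 20.1 in T24 and 33.2, 24.9, 27.0, 52.5 and 43.3 in T24R2. The T24R2 values lay within the range of T24, and T24 replicates 3 and 4 were above all of them (difference T24R2 minus T24 -6.60, exact permutation p = 0.643). The strongest summits were spread over 419 nt. By its strongest peak in each library the T24 mean of KEAP1 was 61.0 ± 22.6 and its T24R2 mean 42.0 ± 9.32 (SD, n = 5 each), which differ by -19.0 (exact permutation p = 0.143, adjusted p = 0.510). This difference was -34.1 in lists of equal length (exact permutation p = 0.00794) and -26.3 without T24 replicate 2 (exact permutation p = 0.0159), and limma on log2 fold enrichment gave p = 0.0347, whereas ranked by −log10 q it was 7.22 in the opposite direction. None of these passed adjustment (lowest adjusted p = 0.204, exact permutation test). Region 4 in exon 5 was called in T24R2 replicate 5 alone.

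BACH1, the heme-sensitive repressor of HMOX1 and related genes, lies on the plus strand of chromosome 21. Its peaks at the long coding exon 3 were the member result with the widest separation in strength. Region 8 (chr21:29326153-29327343) was called in all 10 libraries, at percentiles of 17.3, 5.70, 1.60, 4.69 and 1.64 in T24 and 43.5, 39.9, 31.1, 27.9 and 59.8 in T24R2. Every T24R2 library was above every T24 library, as for 3.63% of the 9577 regions called in all libraries. The mean percentile was 6.18 ± 6.46 in T24 and 40.4 ± 12.5 in T24R2 (SD, n = 5 per line), a difference of 34.3 with an exact permutation p of 0.00794, the smallest that 5 against 5 libraries allow (adjusted p = 0.176 over 9577 regions, not past 0.05). On the authors' scale the fold enrichment was 2.57 to 4.78 in T24 and 5.17 to 7.53 in T24R2. In lists of equal length the difference was 16.1 percentile points, with the same exact permutation p.

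The lines overlapped at the other BACH1 sites. Region 10, in the coding part of the last exon a median of 311 nt before the stop codon, had its strongest summit within 26 nt in all 10 libraries, beside the GAACA match shown above. Its percentiles were 50.1, 21.5, 83.9, 81.9 and 31.5 in T24 and 85.2, 65.8, 92.3, 74.8 and 84.1 in T24R2, means of 53.8 ± 28.5 and 80.5 ± 10.3 (SD, n = 5 each). This difference of 26.7 was not past 0.05 (exact permutation p = 0.0873, adjusted p = 0.438), and it had a p of 0.0317 without T24 replicate 3 or without T24 replicate 4 (exact permutation). Leaving out single libraries gave 18.6 to 34.2, with exact permutation p from 0.0317 to 0.175. In lists of equal length the difference was 23.6 (exact permutation p = 0.151). Ranked by −log10 q it was 8.43 (exact permutation p = 0.349). Region 7 overlaps the first exon of 32 nt and was called in all libraries, but its summit lay in that exon in 2 T24R2 libraries and outside BACH1 exons in the others. Region 6, in an exon shared with LINC00189, and region 9 in exon 4 were called in 1 library each. A further 39 summits, 17 in T24 and 22 in T24R2, lay in the gene body outside its exons.

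NFE2L2, the gene of NRF2 itself, lies on the minus strand of chromosome 2. It had 3, 3, 4, 4 and 4 exonic peaks in T24 and 6, 5, 5, 5 and 7 in T24R2, but 30 of the member peaks were in exons of other transcripts and 29 of these were in NFE2L2. On the MANE Select transcript the numbers were 1, 1, 2, 1 and 2 in T24 and 2, 2, 2, 1 and 3 in T24R2, which overlap. The separation in peak number therefore rests on exons outside that transcript. Region 11 is one of these. It was called in 4 libraries of T24R2 and 0 of T24 (p = 0.0476 by Fisher's exact test, 0.517 after adjustment), and all 4 summits also lay in an exon of ENSG00000213963. Regions 17 and 18 overlap exons of HNRNPA3, a neighbouring gene, and the lists carry no strand, so their peaks can belong to either gene. Region 17 was called in all 10 libraries and region 18 in 1 T24 and 4 T24R2 libraries. Region 16, which lies in no exon of another gene, was called in 5 and 4 libraries, at mean percentiles of 42.8 and 25.2, and region 13 in 0 and 1. A further 48 summits lay in the gene body outside NFE2L2 exons, 12 of them in exons of other genes.

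Region 15, the NFE2L2 region called in all libraries on the MANE Select transcript, was in the coding part of the last exon and was the member region with a lower percentile in T24R2 at an unadjusted p under 0.05. It (chr2:177230849-177231985) was at percentiles of 20.4, 32.8, 56.3, 35.4 and 30.2 in T24 and 9.51, 28.1, 11.2, 5.82 and 16.2 in T24R2. The ranges overlapped through T24 replicate 1 and T24R2 replicate 2. The T24 mean was 35.0 ± 13.2 and the T24R2 mean 14.2 ± 8.63 (SD, n = 5 each), a difference of -20.9 with an exact permutation p of 0.0159 (adjusted p = 0.231, not past 0.05). Its strongest summits were spread over 508 nt, and ranked by −log10 q in place of fold enrichment the difference was -1.80 (exact permutation p = 0.651). Region 14 at the second exon, near the start of the CDS, was called in 4 libraries of T24R2 and in T24 replicate 3 (p = 0.206 by Fisher's exact test), with fold enrichment of 6.23 in T24 replicate 3 and 2.14 to 3.14 in T24R2. Region 12 in the 5′UTR was called in T24R2 replicate 5.

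**Figure D3:**
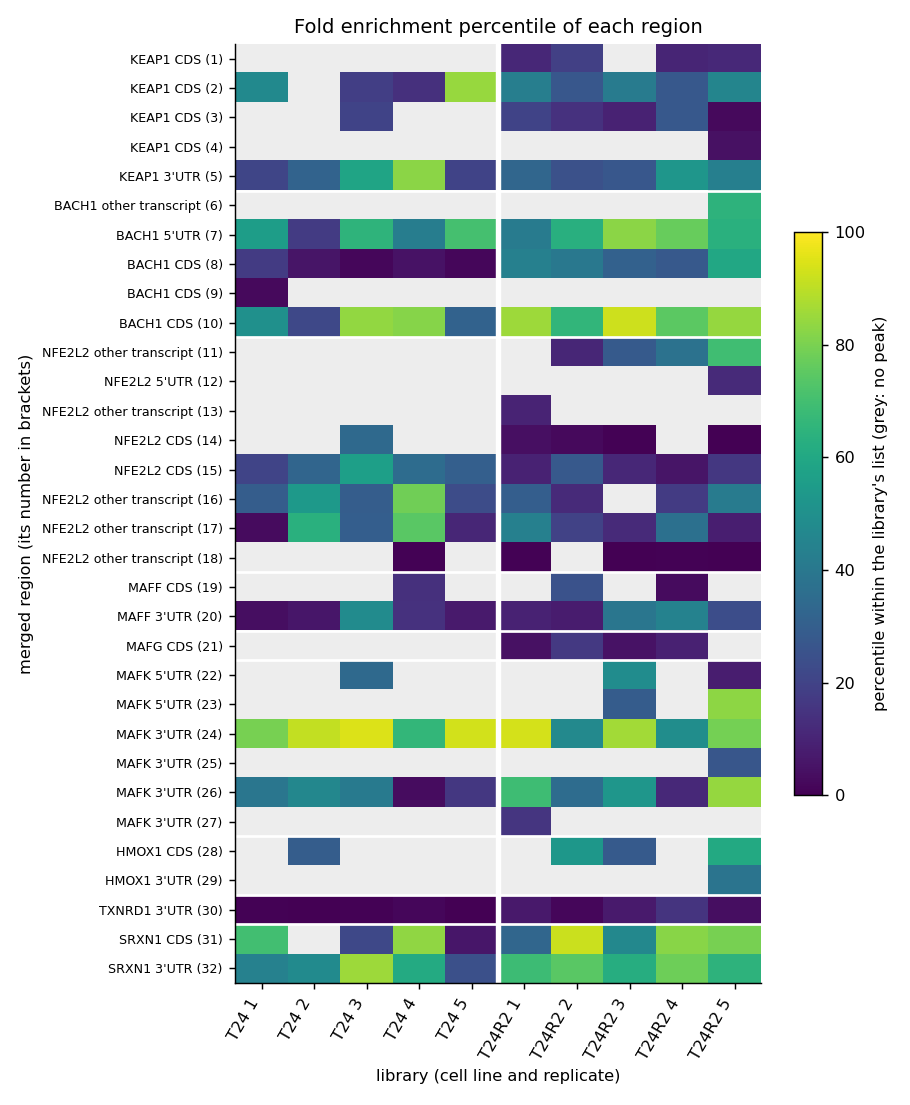
Fold enrichment percentile (colour, from 0 to 100 within each library's list) of the 32 member regions (rows, with the class of most summits and the region number) in the 10 libraries (columns), with grey where no peak was called. BACH1 region 8 and TXNRD1 region 30 are lighter in T24R2, and KEAP1 regions 1 and 3, NFE2L2 region 11 and MAFG region 21 are mostly grey in T24.

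The small MAF proteins lack an activation domain of their own and serve as DNA-binding partners of NRF2 and BACH1. In T24 the strongest member region by mean percentile was MAFK region 24 in the 3′UTR, at 84.9 ± 12.1, whereas in T24R2 it was at 70.9 ± 21.6 (SD, n = 5 each), below BACH1 region 10. Its percentiles were 79.5, 91.0, 94.6, 66.2 and 93.3 in T24 and 93.6, 46.9, 86.2, 48.9 and 79.0 in T24R2, a difference of -14.0 that the replicate spread covers (exact permutation p = 0.238). The difference compares unlike positions, because the strongest summit was at 946 to 986 nt of the transcript in the T24 libraries and at 1669 and 1657 nt in T24R2 replicates 2 and 4, the T24R2 libraries with the lowest values. Region 26, further along the same 3′UTR, was also called in all 10 libraries, at means of 29.1 ± 18.6 and 50.5 ± 28.4 (SD, n = 5 each, exact permutation p = 0.190), and 5 of its 10 summits also lay in an exon of TMEM184A. MAFK regions 22, 23, 25 and 27 were called in 1 to 3 libraries each.

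MAFF had 1 merged region called in all libraries, region 20 in the 3′UTR. Most of its summits lay at 207 to 260 nt or at 681 to 700 nt after the stop codon, with peaks at both in T24 replicates 2, 3 and 4. T24 replicate 5 also had a summit at 403 nt and T24R2 replicate 3 its strongest at the stop codon, and the strongest summits of the libraries were spread over 700 nt. By its strongest peak it was at percentiles of 3.81, 6.13, 48.2, 14.2 and 7.11 in T24 and 9.68, 7.77, 39.3, 44.4 and 23.8 in T24R2 (difference 9.10, exact permutation p = 0.413). T24 replicate 3 stood well above the other T24 libraries. Without it the difference was 17.2 for the region (exact permutation p = 0.0952) and 20.6 for the strongest peak of the gene (p = 0.0238, against 0.246 with all libraries, exact permutation), and leaving out single libraries gave 4.23 to 17.2 for the region. In lists of equal length these differences were 0.788 and 2.85 (exact permutation p = 0.881 and 0.770). Ranked by −log10 q the region differed by 24.4 (exact permutation p = 0.0714). MAFF region 19 was called in 1 T24 and 2 T24R2 libraries, with an exonic summit (in the CDS) in T24R2 alone, and overlaps an exon of PLA2G6. MAFG was the member gene that passed an unadjusted Fisher's exact test of gene presence, with region 21 in its last exon called in 4 libraries of T24R2 and none of T24 (p = 0.0476, adjusted p = 0.533), as did 6.45% of all genes in that direction. Its fold enrichment was 3.08, 4.97, 3.13 and 3.92 in T24R2 replicates 1 to 4, between the 4.32nd and 16.6th percentile. The 4 summits were spread over 341 nt, 2 of them also lay in an exon of ENSG00000264769, and 1 of the 4 peaks was kept in lists of equal length.

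Among the targets, TXNRD1 (cytosolic thioredoxin reductase) had the weakest of the sites called in all libraries. Region 30 (chr12:104348325-104348801) lay in the 3′UTR, a median of 160 nt after the stop codon. Its percentiles were 0.678, 0.291, 0.456, 1.57 and 0.249 in T24 and 6.85, 1.74, 7.36, 15.0 and 3.76 in T24R2, so all T24R2 libraries were above all T24 libraries. The mean was 0.648 ± 0.540 against 6.94 ± 5.05 (SD, n = 5 each), a difference of 6.29 with an exact permutation p of 0.00794 (adjusted p = 0.176, not past 0.05). The fold enrichment was 2.02 to 2.60 in T24 and 2.91 to 4.42 in T24R2, near the lower end of the lists in both lines. Ranked by −log10 q the difference was 49.4 percentile points (exact permutation p = 0.00794). In lists of equal length the peak was kept in all 5 T24R2 libraries and in 2 of T24 (p = 0.167 by Fisher's exact test). A further 35 summits lay in the gene body outside its exons, 20 of them in exons of other genes.

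SRXN1, which encodes sulfiredoxin and repairs overoxidised peroxiredoxins, had peaks in its first and its last exon. Region 32 in the 3′UTR was called in all 10 libraries, at 43.8, 47.7, 85.4, 61.0 and 24.6 in T24 and 68.6, 74.3, 62.5, 78.1 and 64.6 in T24R2 (percentiles). The means of 52.5 ± 22.6 and 69.6 ± 6.55 (SD, n = 5 each) did not differ past 0.05 (exact permutation p = 0.135, adjusted p = 0.522). Without T24 replicate 3 the difference was 25.3 with a p of 0.00794 (exact permutation). The strongest summits of the libraries were spread over 909 nt. All 16 summits of this region also lay in an exon of ENSG00000270299, so they cannot be given to SRXN1 alone. Region 31, in the coding first exon, was called in 4 T24 and 5 T24R2 libraries, at percentiles from 6.0 to 83.3 and from 32.9 to 91.8.

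HMOX1, the heme-degrading oxygenase, had few peaks. Region 28 near the start of its CDS was called in T24 replicate 2 and in T24R2 replicates 2, 3 and 5 (Fisher's exact p = 0.524), with fold enrichment of 5.40 in T24 and of 7.90, 4.99 and 7.63 in T24R2. Region 29, in the 3′UTR, was called in T24R2 replicate 5. A difference between 1 and 3 of 5 libraries is not one that this design can resolve.

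Over the 11 member regions called in all libraries, 2 had a higher percentile in T24R2 at an unadjusted exact permutation p under 0.05 (BACH1 region 8 and TXNRD1 region 30), and 10.9% of the 9577 such regions did. In the other direction it was 1 of 11 (NFE2L2 region 15), against 3.04%. The median difference was 9.10 percentile points over the 11 member regions and 4.84 over all 9577. Not all of the 11 values belong to a member alone. The strongest peaks of BACH1 region 7 had their summits outside BACH1 exons. All summits of NFE2L2 region 17 and SRXN1 region 32, and some of MAFK region 26, also lay in exons of other genes. By gene, taking the strongest exonic peak, TXNRD1 was 1 of 7 members with a higher value in T24R2 at that level, against 11.5% of 6360 genes, and the median difference was 6.29 for the members and 4.24 for all. No region or gene passed the Benjamini-Hochberg adjustment (lowest adjusted p = 0.176 for regions and 0.154 for genes, exact permutation tests). Of the 11 regions, 9 had a summit in an exon of the gene in each library and lay mostly on the MANE Select transcript, and 8 of these 9 were in the last exon, the other being BACH1 region 8. The same share over all regions called in all libraries is not given here. It thus cannot be said whether this is particular to the members.

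**Figure D4:**
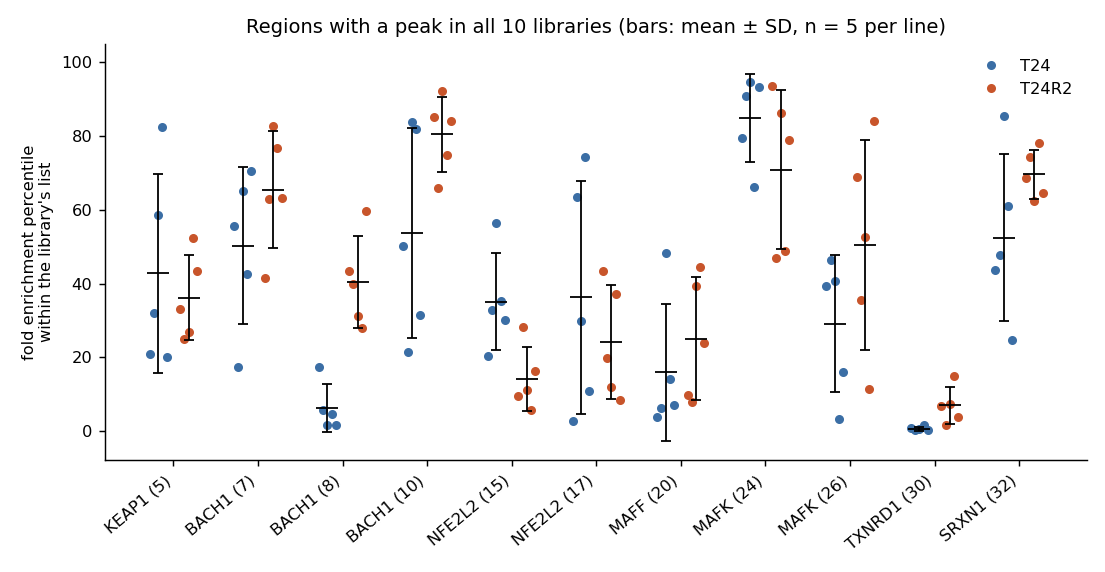
Fold enrichment percentile (vertical axis, 100 is the strongest peak of a list) of the 11 member regions called in all 10 libraries (horizontal axis, region number in brackets), 1 point per library, T24 in blue and T24R2 in orange, with black bars for mean ± SD (n = 5). The lines do not overlap at BACH1 region 8 and TXNRD1 region 30, and NFE2L2 region 15 is lower in T24R2 with overlapping ranges.

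The wider pathway was described by a list of 26 other genes, from the ubiquitin ligase and kinases that act on NRF2 to glutathione, NADPH and iron genes. Of these, 14 had an exonic peak in any library, 6 in all 10 and 12 in none, among the last GCLM, GSR, TALDO1 and TKT. Of all 13976 genes with an exonic peak, 45.5% had one in all 10 libraries. At an unadjusted Fisher's exact p under 0.05, 2 genes were called in more T24R2 libraries (6.45% of all genes were) and 0 in more T24 libraries. The 2 genes were PGD, a pentose phosphate dehydrogenase (1 against 5 libraries), and AKR1C1, an aldo-keto reductase (0 against 4), each with an adjusted p of 0.533. Shares of all genes in the T24 direction are not given here, for presence or for percentiles. Of the 6 genes called in all libraries, 3 had a higher percentile of the strongest peak in T24R2 (11.5% of all such genes did) and 0 a lower one at that level. BTRC, the F-box protein of a ligase that degrades NRF2 after phosphorylation, had a mean percentile of 45.8 ± 23.99 in T24 and 89.1 ± 4.10 in T24R2 (exact permutation p = 0.00794, adjusted p = 0.154, SD with n = 5). GSK3B, a kinase that primes NRF2 for that ligase, was at 35.2 ± 29.3 and 75.2 ± 12.2 (exact permutation p = 0.0238, adjusted p = 0.251). CBR1, a carbonyl reductase, was at 18.4 ± 15.6 and 51.3 ± 17.4 (exact permutation p = 0.0159, adjusted p = 0.216). GCLC, the catalytic subunit of glutamate-cysteine ligase, was at 68.2 ± 7.97 and 66.4 ± 18.1 (exact permutation p = 0.841). SLC7A11, the antiporter gene on which the study centres, was called in 4 T24 and 5 T24R2 libraries. Its mean percentile was lower in T24R2, at 18.8 in T24 and 7.48 in T24R2, with overlapping ranges (8.07 to 31.4 and 1.36 to 22.4). CUL3, called in as many libraries, was at 23.7 and 36.4. Neither was tested, since a T24 library had no peak. The median difference over the 6 genes was 24.3 percentile points, beside 4.24 over all 6360 genes.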

How the data were processed

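MeRIP-seq peak lists of 10 IP libraries, 5 of T24 and 5 of T24R2, were analysed with groups and replicate numbers from the sample titles. Per the study's methods, reads were aligned to hg38 and a GENCODE annotation older than the one used here, unique reads without duplicates were kept, and peaks were called for each library against its input without a fragment model. The submitters' processing notes name STAR 2.7.0, SAMtools 1.10 and MACS2 3.0.0a6. The fold enrichment deposited by the authors is the peak caller's ratio of IP over local input at the summit. The −log10 p and −log10 q deposited by the authors come from the same calls (lowest −log10 q 2.00), and the score deposited by the authors is a whole number derived from the q-value and was not used. The authors' merged list of 43676 regions was identical to a bedtools merge of the lists. No list holds read counts, so depth is unknown and the study's count tests could not be run.

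Summits were assigned to every gene with an exon there (GENCODE 44, bedtools 2.31.1, pysam 0.24.0), without strand, and 1793 peaks on other contigs were not assigned. A library had a region when a peak overlapped it by at least 1 bp, and its strongest peak gave the percentile. Presence was tested by Fisher's exact test over all regions or genes, and percentiles by two-sided exact permutation tests where all 10 libraries had a value, both with Benjamini-Hochberg adjustment over the whole table (numpy 2.4.6, scipy 1.17.1). Both tests were tested on simulated data. The members, the lists of other genes and the tests were chosen with earlier results of these data known, so no p-value is given for a score over the members. All 10 members were named, and of the other pathway genes those with an unadjusted p under 0.05. GCLC, SLC7A11, CUL3 and the genes named without a peak were added after their values were seen. The alternatives were −log10 q of at least 5 or 10, lists of equal length (17203 strongest peaks by −log10 q), 50% cover of the region, limma 3.58.1 on centred log2 fold enrichment, percentiles of −log10 q, the canonical transcript alone, a window of 25 nt or the motif GGAC, leaving out each library, and a replicate block. Same-numbered libraries deviated together in 1 of 5 pairs (r over 0.1, range -0.030 to 0.111), so the numbers were not taken as pairs.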

Additional observations from a re-analysis of the deposited data

Results flagged for a closer look

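Of 42 groups of 5 libraries examined, 4 held a library far from the other 4, and chance gives this in about 5% of groups. BACH1 region 8 was at the 17.3rd percentile in T24 replicate 1, while the next T24 library was at 5.70. Without that library every T24R2 value remained above every T24 value, since T24 replicate 1 was the highest of its line. MAFF region 20 was at the 48.2nd percentile in T24 replicate 3 and at 14.2 in the next T24 library. The same peak is the strongest of MAFF in that library, so the gene's value of 48.2 stood apart as well. T24 replicate 2 had peaks on 8 member genes and the other T24 libraries on 7, a difference of 1 gene (HMOX1) that stands out because the other 4 values are equal.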

How the results depend on the processing

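Among 476 values from alternative settings, 405 kept sign and call or stayed close to the reported value, 25 were no longer past 0.05, 15 newly passed it, 26 counts or untested values moved further and 5 changed direction. Most of the 405 came from leaving out single libraries, with 222 tested values and 76 counts or untested values. In the other settings 86 tested values and 21 counts or untested values stayed so. There, 25 tested values were no longer past 0.05, 8 newly passed it, 4 changed direction, and 22 counts or untested values moved further. With all peaks, 4 member regions differed in presence, 3 regions in fold percentile, 1 gene in presence and 1 gene in its strongest peak, all at unadjusted p. At a −log10 q of at least 5 these counts were 1, 1, 0 and 0, and T24R2 libraries had peaks on 1.80 more member genes than T24 libraries (1.20 with all peaks). At a −log10 q of at least 10 there was 1 region for presence, and none of the 4 regions above was called. The 1 region was TXNRD1 region 30, with −log10 q of 12.3 to 25.4 in T24R2 replicates 1 to 4 and at most 5.90 in T24. TXNRD1 was likewise the 1 gene called for presence there, and MAFG was not. There were 0 regions for fold percentile and 0 genes for the strongest peak. The difference in member genes was 2.00 and that in the share of exonic peaks 0.0380 percentage points (0.0225 with all peaks). The fold percentiles of BACH1 region 8 and TXNRD1 region 30 could not be tested at either limit, because not every T24 library kept a peak. In lists of equal length 0 regions and 0 genes differed in presence and the difference in member peaks was 3.20 (7.20 with all peaks). With 50% cover 1 region differed in fold percentile. The count of genes with a differing strongest peak was 2 with limma, 2 with percentiles of −log10 q and 2 on the canonical transcript. Percentiles of −log10 q reversed KEAP1 region 5 (12.9), NFE2L2 region 17 (12.2), and the strongest peak of NFE2L2 (1.63) and KEAP1 (7.22). The causes were not tested. DRACH was present at 66.8% of member summits within 25 nt and GGAC at 43.9% within 50 nt, below the 71.7% and 47.9% of all exonic peaks.

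Leaving out each library gave 3 to 5 regions differing in fold percentile and 1 to 3 genes in the strongest peak, with 5 and 3 without T24 replicate 3. KEAP1 region 5 ranged from -12.3 to 3.32. Fitted with a replicate block, 0 regions and 0 genes differed in presence, where the smallest possible p is 0.0625, and 2 genes differed in the strongest peak. With this block, fitted by limma rather than by the exact permutation test, TXNRD1 region 30 had a p of 0.368. BACH1 region 10 (p = 0.0340) and the strongest peaks of KEAP1 (p = 0.0324) and BACH1 (p = 0.0306) passed 0.05 unadjusted in this fit, where the exact permutation test had not called them, and did not after adjustment (lowest adjusted p = 0.283). By replicate number, 1 of 5 T24 and 1 of 5 T24R2 libraries correlated best with its own number.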
